A study of Mus musculus with 21 samples.

Results

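Interferon-inducible GTPases are the subject of these results: 10 genes of the immunity-related GTPase (IRG) and guanylate-binding protein (GBP) families, namely Irgm1, Irgm2, Igtp, Gm12250, Gm12185, Gm5970, BC023105, Gbp2, Gbp3 and Gbp7. They were chosen by name from a list drawn up with the inhibitor results of these libraries in view, and all 10 rows are in each of the 4 expression tables, which together hold 14698 genes. RNA was sequenced from Ba/F3 cells (mouse pro-B cells that normally depend on interleukin-3) expressing JAK2-V617F, the constitutively active kinase of myeloproliferative disease. Cells of all 7 groups, DMSO controls included, carried JAK2-V617F, so no group shows the level without the mutant kinase. There were 21 libraries, 3 per group. After 6 h with 1 μM of the type I inhibitor ruxolitinib, 1 μM of the type II inhibitor CHZ868 or DMSO, cells formed the ruxolitinib-treated, CHZ868-treated and DMSO-treated groups. For washout, cells were kept for 1 h with 1 μM inhibitor or DMSO, washed and left for 6 h without inhibitor, which gave ruxolitinib-wash and CHZ868-wash cells, each beside its own DMSO-wash group. Nothing in the labels says whether the libraries of a group came from separate cultures, so the spread between them may be technical.

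IRG and GBP proteins are large GTPases that mark and disrupt the vacuoles in which bacteria and parasites live. Interferon-γ acts through JAK1 and JAK2 on gamma-activated sites (GAS) of its target genes, and type I interferon acts through JAK1 and TYK2 on a complex with STAT2 and IRF9, which binds interferon-stimulated response elements (ISRE). Irgm1, Irgm2 and Igtp (also called Irgm3) encode the regulatory IRGM proteins, which sit on the cell's own membranes and hold the effector IRG proteins inactive there. Gm12250 (Irgb10) and Gm12185 (Irgb2b1) belong to the effector side of the family, and Gm5970 and BC023105 are related loci that RefSeq lists as pseudogenes. GBPs are recruited to vacuoles with help from the IRGM proteins and the Atg8 conjugation system.

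The libraries of 3 tables were deposited as log2 CPM values that correspond to whole reads. Over these 15 libraries there were 7880000 to 10670000 reads per library on the listed genes. For the ruxolitinib washout table whole reads were not recovered, and its depth is unknown. Ruxolitinib-treated replicate 2 and replicate 3 of the DMSO-wash group of the CHZ868 experiment stood apart from their groups, and the values without them follow beside the results. Of 14 pro-B and haematopoietic markers, Cd79a, Cd79b, Ptprc, Il3ra, Csf2rb and Csf2rb2 were in the tables, and the defining genes Vpreb1, Igll1, Rag1, Ebf1, Pax5, Il7r and Kit were not. Of the markers of other cell types, 0 of 4 T cell markers were listed, and Col1a1 was the fibroblast marker found (at most 2.13 CPM, in the ruxolitinib washout table). The summed level of macrophage markers was 15.2 to 19.3 CPM in DMSO-treated, 12.4 to 18.8 in CHZ868-treated and 13 to 18.7 in ruxolitinib-treated cells. It was higher in the washout groups, at 23.3 to 32.4 CPM in CHZ868-wash and 28.2 to 40.9 in its DMSO-wash cells. In ruxolitinib-wash cells it was 42.8 to 45.7 CPM and in their DMSO-wash cells 45.7 to 54.3, where 4 of 5 markers were listed against 2 of 5 in the other tables.

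The promoters are shown first because IRG and GBP genes are known as interferon targets. RefSeq promoters of GRCm38.p6, from 250 bases before to 50 bases after the gene start, were found for 8 of the 10 members, Gbp3 with 2 of them, and BC023105 and Gm5970 had none. The motifs searched were GAS, TTCNNNGAA, which reads the same on both strands, and the core of the ISRE, GAAANNGAAA, on both strands. The ISRE core was present in the promoters of 8 of 8 members, against 3.99% of all 27025 genes with a promoter in the table and 3.92% of the 7836 such genes that all 4 expression tables hold. GAS was present for 5 of 8 members, against 9.55% and 8.31%, and both motifs stood together in the promoters of 5 of 8, against 0.54% and 0.523%. The stretches that hold the matches follow, each read 5′ to 3′ along its gene, with the matching bases in capitals.
Irgm1: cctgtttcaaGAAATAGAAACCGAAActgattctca
Irgm2: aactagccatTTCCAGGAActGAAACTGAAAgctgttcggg
Igtp: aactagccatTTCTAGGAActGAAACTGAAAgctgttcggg
Gm12250: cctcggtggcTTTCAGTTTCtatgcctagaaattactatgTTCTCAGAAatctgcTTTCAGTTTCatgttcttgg
Gm12185: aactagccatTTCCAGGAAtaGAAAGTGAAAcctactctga
Gbp2: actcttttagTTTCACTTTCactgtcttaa
Gbp3: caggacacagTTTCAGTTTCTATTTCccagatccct
Gbp7: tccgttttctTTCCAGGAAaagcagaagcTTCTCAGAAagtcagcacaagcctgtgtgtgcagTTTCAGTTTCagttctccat
These stretches lie at Irgm1 chr11:48871425-48871460 (- strand), Irgm2 chr11:58214892-58214932 (+ strand), Igtp chr11:58199501-58199541 (+ strand), Gm12250 chr11:58183742-58183816 (+ strand), Gm12185 chr11:48927238-48927278 (- strand), Gbp2 chr3:142620594-142620623 (+ strand), Gbp3 chr3:142559989-142560024 (+ strand) and Gbp7 chr3:142530220-142530302 (+ strand), coordinates of GRCm38.p6 from RefSeq. In Irgm2, Igtp and Gm12185 the GAS and the ISRE core are 2 bases apart, and the stretches of Igtp and Irgm2 differ at 1 of 41 bases. Gm12185 shares 33 of 41 bases with Irgm2 and 32 of 41 with Igtp. Gm12250 carries an ISRE core on either side of its GAS, Gbp7 carries 2 GAS and an ISRE core, and the matches of Irgm1 and of the first Gbp3 promoter are pairs of overlapping ISRE cores. No GAS was found in these windows of Irgm1, Gbp2 and Gbp3, which says only that these letters are not there.

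Among the other genes listed, the ISRE core was present in the promoters of 5 of the 7 other GTPases with a promoter and 3 of 15 interferon receptor and signalling genes and in 0 of 8 Atg8 and conjugation genes. GAS was present for 3 of 7, 6 of 15 and 2 of 8 in the same order, so it was also above its 9.55% over all genes in each of these 3 lists. In a list of family members not known as interferon-inducible, GAS and the ISRE core were each present for 0 of 4 genes. A match of letters is a description and not a measured binding site.

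After 6 h with either inhibitor all 10 members were lower than in DMSO-treated cells. The 4 IRG genes outside the IRGM group were the lowest relative to DMSO, with 0.9% to 3.43% of the DMSO level left in CHZ868-treated and 1.03% to 2.76% in ruxolitinib-treated cells. The IRGM genes kept 9.03% to 18.3% and 10.3% to 17.9%, and the GBP genes 23.2% to 41.3% and 19.7% to 29.9%. Without ruxolitinib-treated replicate 2 the ruxolitinib ranges were 1.01% to 3.35%, 10.2% to 18.6% and 17.9% to 30.4%. In RNA from bulk cultures, fewer cells expressing a gene and less RNA per cell cannot be told apart. Since the members were listed with these differences in view, the values at 6 h are a description and no p-value is given for them. Every member passed the filter of the table at its DMSO level, and genes not expressed in DMSO-treated cells are not in that table.

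For the CHZ868 comparison, limma-trend over 11670 genes called 26.4% of genes lower and 26.8% higher at an adjusted p under 0.05, and the listed genes outside the members are read against these shares. The CHZ868-treated and DMSO-treated libraries did not overlap for 10 of 10 members, where 30.1% of all genes were lower without overlap, and nothing is read from this count since these differences were in view when the members were chosen. The median log2 difference was -3.37 over the members and -0.01 over all genes. Ruxolitinib-treated libraries are in a table of their own, so the median of the 11624 genes in common was subtracted from each library, and no test was run. On that scale 10 of 10 members were at least 1 log2 unit lower and did not overlap DMSO, a pattern that 2.83% of all genes showed, and 20.1% of genes were lower without overlap whatever the size. The median log2 difference was -3.19 over the members and 0.04 over all genes. Without replicate 2 these were -3.13 and 0.03, the 10 members still met both conditions, and 2.80% and 25.7% of all genes did. Both inhibitor groups are set against the same DMSO-treated libraries.

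Irgm1, a regulator also known for its part in autophagy and mitochondrial upkeep, had log2 CPM values of 8.33, 8.19 and 8.35 in DMSO-treated cells, 5.85, 5.78 and 5.90 in CHZ868-treated cells and 6.02, 5.69 and 5.77 in ruxolitinib-treated cells. The inhibitor libraries lay close together and well under the DMSO libraries. The log2 difference was -2.45 (SE 0.07) with CHZ868 and -2.49 (SE 0.11) with ruxolitinib. Here and below, the SE with CHZ868 is the moderated SE of limma-trend, which draws on all genes. The SE with ruxolitinib comes from the spread of the gene's own libraries alone, so SEs are not comparable between the inhibitors. Irgm2, whose protein is found at the Golgi, had 7.63, 7.72 and 7.67 in DMSO-treated, 4.39, 4.20 and 4.62 in CHZ868-treated and 4.49, 4.45 and 4.36 in ruxolitinib-treated cells. Its log2 differences from DMSO were -3.27 (SE 0.10) and -3.27 (SE 0.05). Igtp, which encodes a protein of the endoplasmic reticulum and lipid droplets, kept the smallest share of its DMSO level among the IRGM genes after CHZ868, 9.03% against 10.3% for Irgm2. Its values were 8.48, 8.49 and 8.57 in DMSO-treated, 4.90, 5.12 and 5.13 in CHZ868-treated and 5.57, 5.12 and 5.57 in ruxolitinib-treated cells. The log2 differences were -3.46 (SE 0.08) and -3.12 (SE 0.14), and -2.98 with ruxolitinib without replicate 2.

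**Figure D1:**
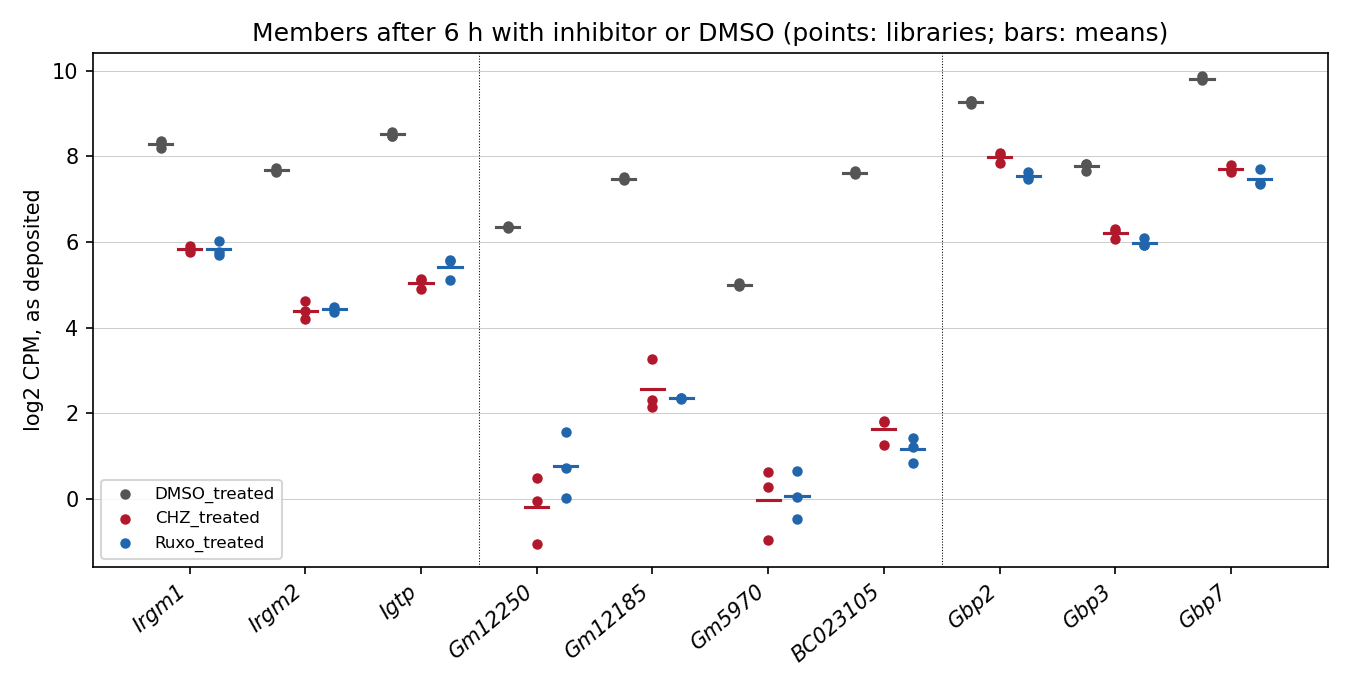
Log2 CPM of the 10 members (horizontal axis) after 6 h, with 1 point per library, a bar at each mean of 3 libraries, and dotted lines between IRGM, other IRG and GBP genes. For every member the DMSO-treated libraries (grey) lie above the CHZ868-treated (red) and ruxolitinib-treated (blue) libraries, and the medians of the 2 tables differ by 0.02 log2 units, which is not removed here.

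Gm12250, which encodes Irgb10, a GTPase that breaks bacterial membranes, stood at 6.34, 6.37 and 6.35 in DMSO-treated cells, from 704 to 847 reads per library. It stood at 0.50, -1.04 and -0.05 in CHZ868-treated cells, from 2 to 12 reads, and at 0.72, 0.03 and 1.56 in ruxolitinib-treated cells, from 8 to 26 reads. The inhibitor-treated libraries differed widely among themselves, on very few reads, and all lay far under the DMSO-treated libraries. The log2 difference was -6.55 (SE 0.31) with CHZ868, the largest fall of all 11670 genes on the deposited scale, and -5.60 (SE 0.43) with ruxolitinib, or -5.24 without replicate 2. On the log2(CPM + 1) scale the values were -5.61 and -5.04, and its fall with CHZ868 ranked 2 behind BC023105, at -5.67. BC023105 had 7.58, 7.60 and 7.66 in DMSO-treated, 1.27, 1.82 and 1.79 in CHZ868-treated and 1.42, 1.23 and 0.85 in ruxolitinib-treated cells. This was 1675 to 1988 reads per DMSO-treated library against 22 to 26 with CHZ868 and 15 to 24 with ruxolitinib. Its log2 difference was -5.99 (SE 0.15) with CHZ868 and -6.48 (SE 0.18) with ruxolitinib, and by size of fall on the deposited scale it ranked 2 with CHZ868 and 1 with ruxolitinib.

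Gm12185 had 7.52, 7.46 and 7.47 in DMSO-treated, 3.27, 2.16 and 2.31 in CHZ868-treated and 2.33, 2.37 and 2.37 in ruxolitinib-treated cells. CHZ868-treated replicate 1 kept 5.26% of the DMSO level and the lowest replicate 2.37%, while the ruxolitinib-treated libraries all lay between 2.65% and 2.77%. The log2 differences were -4.91 (SE 0.21) and -5.15 (SE 0.03). Gm5970, of which DMSO-treated libraries held 285 to 325 reads, had 5.04, 5.00 and 4.99 there, -0.95, 0.63 and 0.28 in CHZ868-treated and 0.05, -0.47 and 0.67 in ruxolitinib-treated cells. Gm5970 had 3 to 10 reads per CHZ868-treated library and 5 to 13 per ruxolitinib-treated library. Its log2 differences of -5.02 (SE 0.34) and -4.95 (SE 0.32) carried, with those of Gm12250, the widest errors of the 10 with each inhibitor. They moved to -4.18 and -4.16 on the log2(CPM + 1) scale, and with ruxolitinib to -4.68 without replicate 2. GENCODE M21 lists Gm12250, Gm5970 and BC023105 as processed pseudogenes, and RefSeq lists Gm12250 as protein-coding.

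Among the members the GBP genes lost the smallest share, which does not hold for the GBP family at large. The 8 further GBP genes listed kept from 7.61% (Gbp4) to 34.0% (Gbp2b) of the DMSO level with CHZ868. With ruxolitinib they kept from 6.18% (Gbp11) to 32.0% (Gbp5). Gbp2, one of the GBPs that gather on parasite vacuoles, had 9.28, 9.28 and 9.22 in DMSO-treated, 8.02, 7.84 and 8.08 in CHZ868-treated and 7.63, 7.48 and 7.52 in ruxolitinib-treated cells. The log2 differences were -1.28 (SE 0.06) with CHZ868 and -1.74 (SE 0.05) with ruxolitinib, and between 1729 and 2624 reads were left in each inhibitor library. Gbp3 had 7.83, 7.67 and 7.83, then 6.27, 6.07 and 6.31, and 6.10, 5.94 and 5.93 in the same order of groups. Its log2 differences were -1.56 (SE 0.08) and -1.81 (SE 0.08). Gbp7, a GBP linked to the phagocyte oxidase, had 9.87, 9.78 and 9.80 in DMSO-treated, 7.79, 7.69 and 7.63 in CHZ868-treated and 7.37, 7.71 and 7.38 in ruxolitinib-treated cells. The log2 differences were -2.11 (SE 0.06) and -2.36 (SE 0.13), and -2.48 with ruxolitinib without replicate 2, the highest library of its group. For the 6 members whose value without that library is not given above, it moved the ruxolitinib difference by less than 0.1 log2 units. Whether the members differ in response between the inhibitors was not tested, since the groups are in tables that were normalized separately.

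Some members overlap neighbours or have near copies, and whether reads were shared between them was not measured. The overlaps given are of whole gene spans, introns included. In GENCODE M21, on GRCm38, the Irgm2 model (chr11:58199618-58222782, + strand) overlaps that of Igtp (chr11:58199556-58207591, + strand) over 7974 bases, and the longest Igtp and Irgm2 transcripts are 89.9% identical over 542 bases. The longest BC023105 transcript is 94.4% identical to Gm4841 over 1215 bases, Gm5970 is 88.2% identical to Iigp1 over 1224, and Gm12185 is 92.9% identical to 9930111J21Rik1 and 92.8% to 9930111J21Rik2 over 2622. The Gm12185 model also overlaps those of 9930111J21Rik1 over 33249 bases and Tgtp1 over 6900 bases, on the same strand. The pseudogene Gm43802, which the tables also list, lies within the Gbp7 model on the same strand, and 637 of the 5614 bases of the longest Gbp7 transcript are 100% identical to it. The levels of these genes are therefore uncertain to the extent that shared reads were divided among them.

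The other interferon-inducible GTPases were read from a list of 20 genes, of which 18 were in the 6 h tables. This list and those that follow were chosen with earlier results of these data known. Their counts and p-values are therefore a description and no independent support. With CHZ868, 17 of 18 fell at an adjusted p under 0.05 by limma-trend and 0 rose, against 26.4% and 26.8% of all genes, with a median log2 difference of -2.92. With ruxolitinib, 17 of 18 were at least 1 log2 unit lower and did not overlap, with a median of -2.93, and 18 of 18 without replicate 2, with a median of -2.80. The median log2 difference was -3.40 with CHZ868 over 8 further IRG genes, -2.72 over 8 further GBP genes and -2.43 over Mx1 and Mx2, which encode antiviral dynamin-like GTPases. Tgtp1, an effector IRG gene, fell by 4.74 on the log2 scale (SE 0.12, limma-trend adjusted p = 5.1e-13) with CHZ868 and stood at a difference of -4.51 (SE 0.06) with ruxolitinib. Iigp1, which encodes the effector Irga6, had log2 differences of -4.59 (SE 0.07, limma-trend adjusted p = 3.28e-16) and -5.09 (SE 0.03). Among GBP genes Gbp4 had -3.69 (SE 0.09, limma-trend adjusted p = 3.81e-13) and -3.91 (SE 0.14). Without ruxolitinib-treated replicate 2 Tgtp1, Iigp1 and Gbp4 were at -4.54, -5.11 and -4.02.

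9930111J21Rik2 stood apart from the other listed GTPases with CHZ868. Its log2 difference was 0.35 with CHZ868 (SE 0.15, limma-trend adjusted p = 0.0695) and -0.70 with ruxolitinib (SE 0.39), and its libraries overlapped those of DMSO-treated cells in both. Without ruxolitinib-treated replicate 2 its difference was -1.08 and the groups no longer overlapped. It stood at 128% of the DMSO level with CHZ868 and 65.5% with ruxolitinib, although the longest Gm12185 transcript resembles it closely. Its neighbour 9930111J21Rik1 had few reads, 36 to 41 per DMSO-treated library, and log2 differences of -1.25 (SE 0.50, limma-trend adjusted p = 0.0472) and -1.18 (SE 0.14). Of the 20 genes with the largest falls on the deposited scale, members made up 5 with CHZ868 and 4 with ruxolitinib, and other listed GTPases 5 and 7. These falls were known when the members and lists were chosen, so nothing is read from the counts. The counts also depend on the scale. On log2(CPM + 1) Irgm2 ranked 16 with CHZ868 and 18 with ruxolitinib, against 23 and 25 on the deposited scale.

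**Figure D2:**
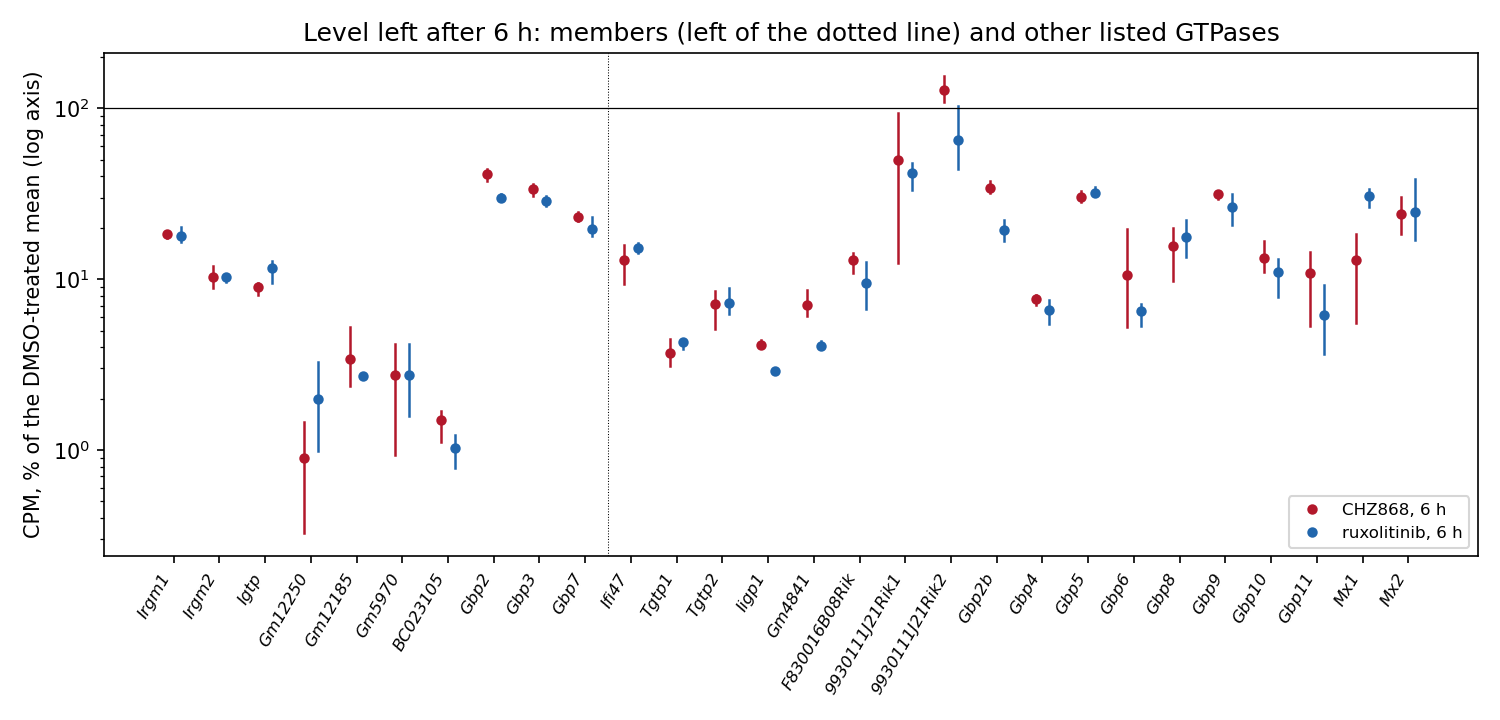
Level left after 6 h, as a percentage of the DMSO-treated mean CPM (log axis), for the 10 members and 18 other listed GTPases, with a point at the mean of 3 libraries and a line from the lowest to the highest library. CHZ868 is red and ruxolitinib blue, and the horizontal line marks 100%. Of the members the 4 IRG genes outside the IRGM group lie lowest, at means between 0.9% and 3.43%. Iigp1, which is not a member, lies a little above the highest of these means with each inhibitor. It stands at 4.13% against 3.43% with CHZ868 and at 2.91% against 2.76% with ruxolitinib.

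Interferon receptor and signalling genes moved in both directions. Of 16 interferon receptor and signalling genes in the CHZ868 table, 10 fell and 6 rose at an adjusted p under 0.05 by limma-trend, where 26.4% of all genes fell and 26.8% rose. Those that fell included Irf1, a transcription factor that activates GBP genes, at -2.40 (SE 0.08, limma-trend adjusted p = 3.9e-12) and Irf9, the DNA-binding part of the type I interferon complex, at -1.92 (SE 0.11, limma-trend adjusted p = 1.99e-09). Socs1, a feedback inhibitor of JAK kinases, had the largest change of the list at -5.20 (SE 0.37, limma-trend adjusted p = 2.36e-08). The receptor genes Ifngr1, Ifngr2 and Ifnar1 rose by log2 differences of 0.48, 0.38 and 0.40, while Ifnar2 fell by 0.33 on the log2 scale. The kinase genes Jak1 and Jak2 rose by 0.28 and 0.19, while Tyk2 was lower, at -0.30.

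With ruxolitinib 8 of the 16 were at least 1 log2 unit lower without overlap and 0 were higher by that much, against 2.83% of all genes lower, and again 8 of 16 were without replicate 2. Irf1 was at -2.30 (SE 0.16), Irf9 at -1.93 (SE 0.11) and Socs1 at -4.06 (SE 0.22) on the log2 difference scale, and Jak2 was at 0.06 (SE 0.07) with overlapping libraries. Irf2, a repressor of interferon targets, was at 0.62 (SE 0.08, limma-trend adjusted p = 1.19e-05) with CHZ868 and at -0.10 (SE 0.24) with ruxolitinib, where it was at -0.33 and no longer overlapped DMSO without replicate 2. Without that library Irf1 was at -2.22, Irf9 at -1.99, Socs1 at -4.25 and Jak2 at 0.02.

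Genes of the Atg8 system, which helps IRG and GBP proteins find their targets, had smaller differences. With CHZ868 5 of 10 rose and 2 fell, against 26.8% and 26.4% of all genes, with log2 differences between -0.38 and 0.81, and Gabarap, an Atg8 protein, rose by 0.81 (SE 0.07, limma-trend adjusted p = 1.9e-07). With ruxolitinib 0 of 10 differed by 1 log2 unit, and Gabarap was at 0.55 (SE 0.06). Of the 4 family members not known as interferon-inducible, Atl1 rose by 1.17 (SE 0.10, limma-trend adjusted p = 1.14e-07) and Atl3 fell by 0.26 (SE 0.06, limma-trend adjusted p = 0.00176) on the log2 scale with CHZ868. Irgq, an IRG-related gene, was at 0.03 (SE 0.19, limma-trend adjusted p = 0.903).

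**Figure D3:**
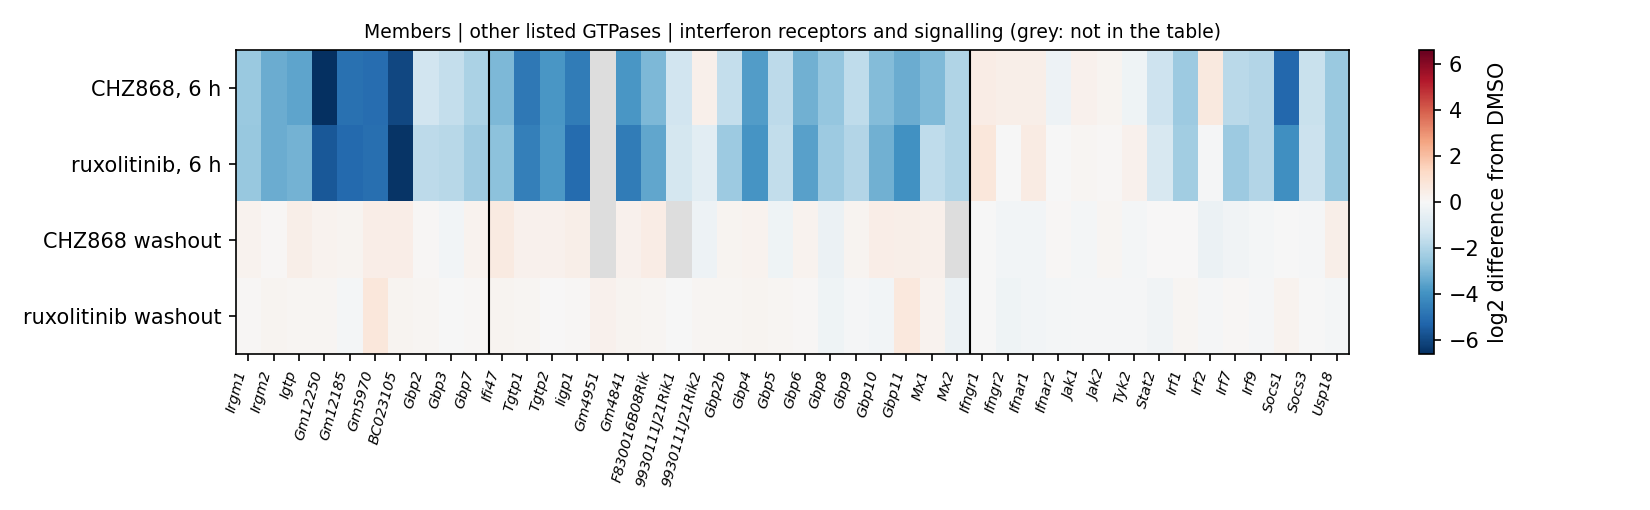
Log2 difference from DMSO (colour, from -6.55 in blue to 0.75 in pale red) in the 4 comparisons (rows) for the 10 members, 19 other GTPases and 15 interferon receptor and signalling genes, separated by black lines. Both 6 h rows are blue over nearly all GTPases and the washout rows are near white, and grey cells are genes that a table does not hold.

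After washout no member was below its DMSO-wash level at an adjusted p under 0.05. Most stood level with or slightly above it, in contrast to the values under inhibitor, although the exposures differ (1 h and then 6 h without inhibitor, against 6 h with it), so the values stand side by side without a test between them. The washout differences were also known when the members were listed, and they support nothing beyond their own values.

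For CHZ868 washout, limma-trend called 4.02% of 11355 genes and 0 of 10 members, and voom called 0 members. At an unadjusted p under 0.05 by limma-trend were 5 members and 2767 of all genes. The median log2 difference was 0.21 over the members and 0.01 over all genes. CHZ868-wash libraries were all above the DMSO-wash libraries for 6 of 10 members, against 14.9% of all genes, and all below for Gbp3. Without DMSO-wash replicate 3 the median over the members was 0.20, 7 of 10 were above without overlap against 22.1% of all genes, and Gbp3 was again below. Igtp had 8.69, 8.73 and 8.75 in CHZ868-wash and 8.48, 8.46 and 8.10 in DMSO-wash cells, and its log2 difference was 0.37 (95% interval 0.14 to 0.61, limma-trend adjusted p = 0.0697). BC023105 had 6.98, 6.73 and 6.83 against 6.47, 6.15 and 6.58, a log2 difference of 0.45 (95% interval 0.19 to 0.72, limma-trend adjusted p = 0.0581).

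Gm5970 had 3.48, 3.44 and 3.57 in CHZ868-wash and 3.20, 3.01 and 2.92 in DMSO-wash cells, a log2 difference of 0.45 (95% interval 0.08 to 0.83). The groups did not overlap, on 91 to 105 reads per CHZ868-wash library and 61 to 88 per DMSO-wash library. Gm12250 had 6.51, 6.29 and 6.31 against 6.09, 6.24 and 6.13, Gm12185 had 7.04, 6.91 and 7.01 against 6.77, 6.79 and 6.79, and Irgm1 had 8.63, 8.47 and 8.48 against 8.37, 8.35 and 8.18. Their log2 differences were 0.21, 0.20 and 0.23, each without overlap of the groups. Irgm2 (7.60, 7.35 and 7.44 against 7.46, 7.33 and 7.40) and Gbp2 (8.64, 8.58 and 8.55 against 8.61, 8.47 and 8.52) overlapped their DMSO-wash libraries, with log2 differences of 0.07 and 0.06. Gbp3 had 6.78, 6.89 and 6.86 against 7.02, 6.95 and 7.05, a log2 difference of -0.16 (95% interval -0.34 to 0.02), which was the lowest of the 10.

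Gbp7 depended on which DMSO-wash library was left out. It had 8.68, 8.75 and 8.64 in CHZ868-wash cells and 8.43, 8.19 and 8.83 in DMSO-wash cells, where 8.83 is replicate 3, and its log2 difference was 0.21 (limma-trend adjusted p = 0.375). Without that library it was 0.38 (limma-trend adjusted p = 0.00585), and without replicate 2 of the same group 0.06 (limma-trend adjusted p = 0.76). Igtp and BC023105 also passed the threshold without it, at 0.25 (limma-trend adjusted p = 0.0197) and 0.54 (limma-trend adjusted p = 0.00411), while the genes called rose from 457 to 1426, or 12.6% of all. For the other 7 members the difference without replicate 3 was 0.17 for Irgm1, 0.07 for Irgm2, 0.20 for Gm12250, 0.20 for Gm12185, 0.39 for Gm5970, 0.05 for Gbp2 and -0.14 for Gbp3, and none of them was called. Without replicate 2 of the same DMSO-wash group Igtp alone of the members was called, at 0.43 (limma-trend adjusted p = 0.0309), among 1298 genes. Without any 1 of the other 4 libraries, at most 1 gene was called in all. Of 16 other GTPases in the table, 2 rose, Ifi47 by 0.59 (SE 0.11, limma-trend adjusted p = 0.0316) and Iigp1 by 0.38 (SE 0.09, limma-trend adjusted p = 0.0412), and their median was 0.28. The other 14 did not pass the test, and 7 of the 16 did without replicate 3. Of the 4 family members not known as interferon-inducible, 1 also rose (limma-trend adjusted p = 0.0418), so a rise was not confined to the inducible GTPases.

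**Figure D4:**
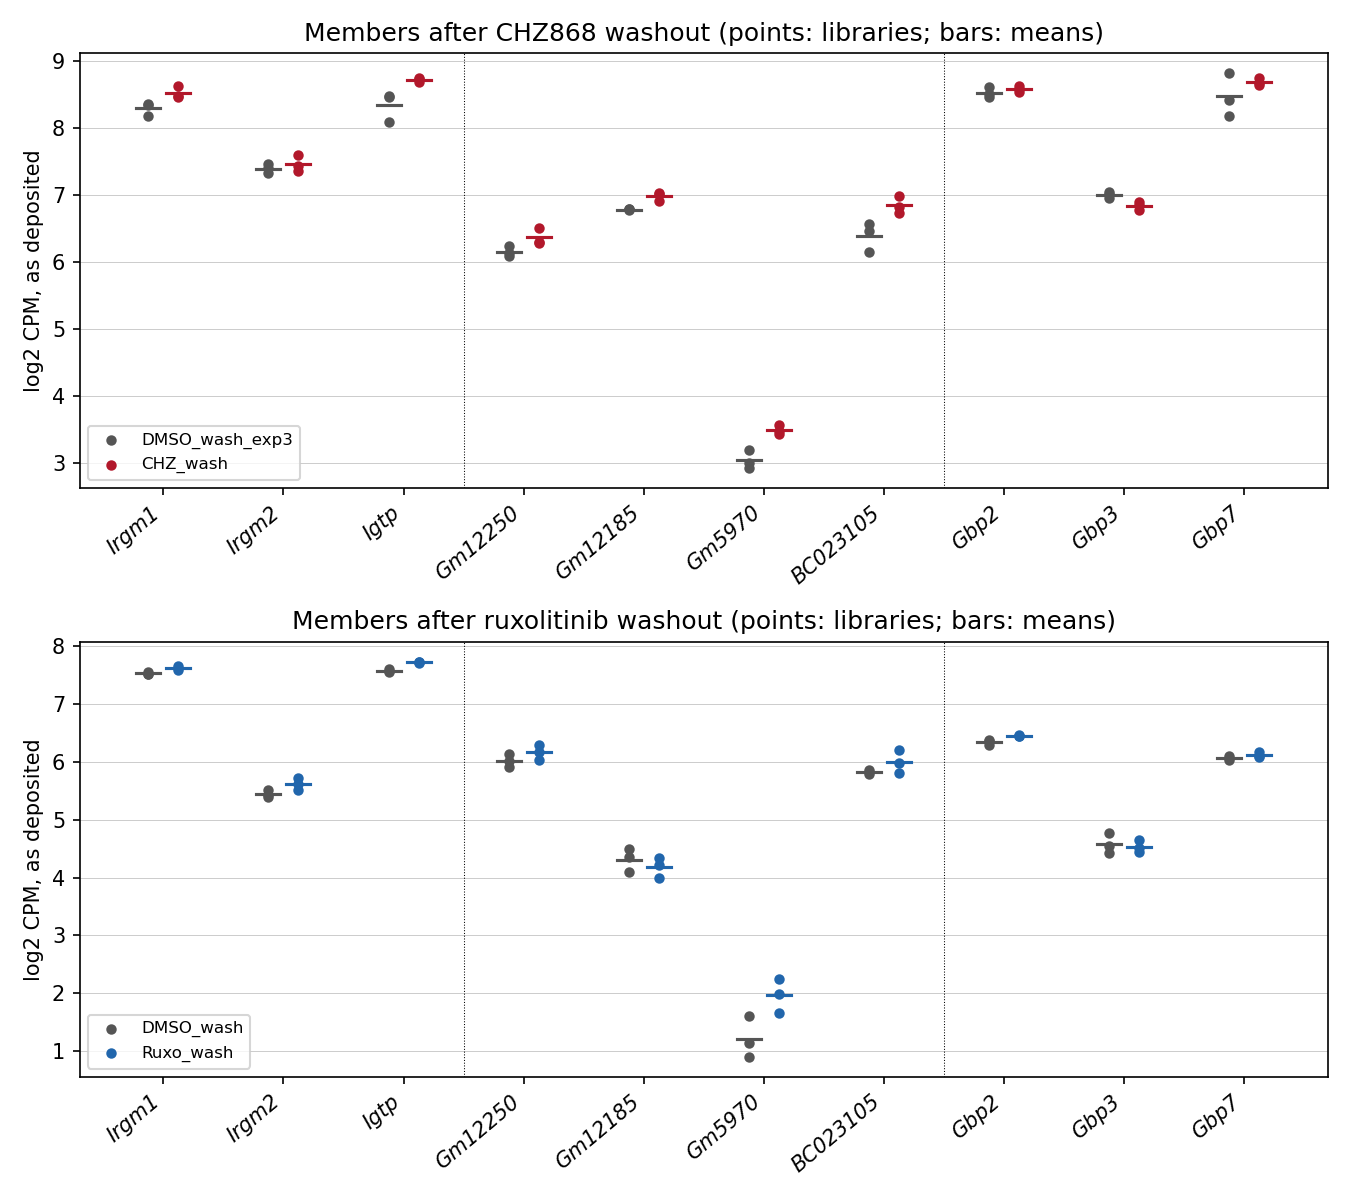
Log2 CPM of the 10 members (horizontal axis) after washout of CHZ868 (upper panel, red) and ruxolitinib (lower panel, blue), each beside its own DMSO-wash group (grey), with 1 point per library and a bar at each mean of 3. For most members the DMSO-wash and inhibitor-wash libraries lie close together, Gm5970 after ruxolitinib washout is the widest apart at a mean difference of 0.75, and the 2 panels come from tables that were normalized separately.

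For ruxolitinib washout, limma-trend called 3 of 13085 genes (0.0229%) and 0 of 10 members, with 5 members and 920 genes at an unadjusted p under 0.05. Limma without the mean-variance trend called 9 genes and again 0 members. The median log2 difference was 0.13 over the members and 0.00 over all genes. Ruxolitinib-wash libraries were all above DMSO-wash for 5 of 10 members, against 6.30% of all genes, and in no member all below. The IRGM genes made up 3 of those 5. Igtp had 7.74, 7.72 and 7.72 against 7.61, 7.57 and 7.55, a log2 difference of 0.15 (95% interval 0.08 to 0.22, limma-trend adjusted p = 0.374). Irgm1 had 7.66, 7.60 and 7.63 against 7.53, 7.56 and 7.53, a difference of 0.09, and Irgm2 5.52, 5.61 and 5.73 against 5.43, 5.39 and 5.51, a difference of 0.18. The other members without overlap were Gbp2 (6.45, 6.46 and 6.46 against 6.38, 6.36 and 6.30) and Gm5970 (2.24, 1.66 and 1.98 against 1.60, 0.89 and 1.14), at 0.11 and 0.75.

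Gm5970 had the largest washout difference of the members and also the widest interval, 0.03 to 1.46, at a low level in this table. The members that overlapped were Gm12250 at 0.15, BC023105 at 0.17, Gbp7 at 0.06, Gbp3 at -0.05 and Gm12185 at -0.13 (95% interval -0.46 to 0.20). With 1 library left out these ranged from 0.08 to 0.21 for Gm12250, 0.07 to 0.26 for BC023105, 0.03 to 0.08 for Gbp7, -0.13 to 0.05 for Gbp3 and -0.24 to -0.04 for Gm12185. The value nearest 0 came without ruxolitinib-wash replicate 1 for Gm12250 and Gm12185, replicate 3 for BC023105 and replicate 2 for Gbp7. Gm12185 had 3.99, 4.33 and 4.21 in ruxolitinib-wash and 4.09, 4.49 and 4.35 in DMSO-wash cells. Gm12250 had 6.29, 6.03 and 6.18 against 6.14, 6.02 and 5.91, and BC023105 had 5.98, 5.82 and 6.20 against 5.83, 5.87 and 5.79. Gbp3 had 4.64, 4.44 and 4.52 against 4.55, 4.42 and 4.77, and Gbp7 had 6.09, 6.18 and 6.11 against 6.04, 6.10 and 6.06. Of 19 other GTPases 0 were called by limma-trend, 2 had an unadjusted p under 0.05, and their median log2 difference was 0.11.

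**Figure D5:**
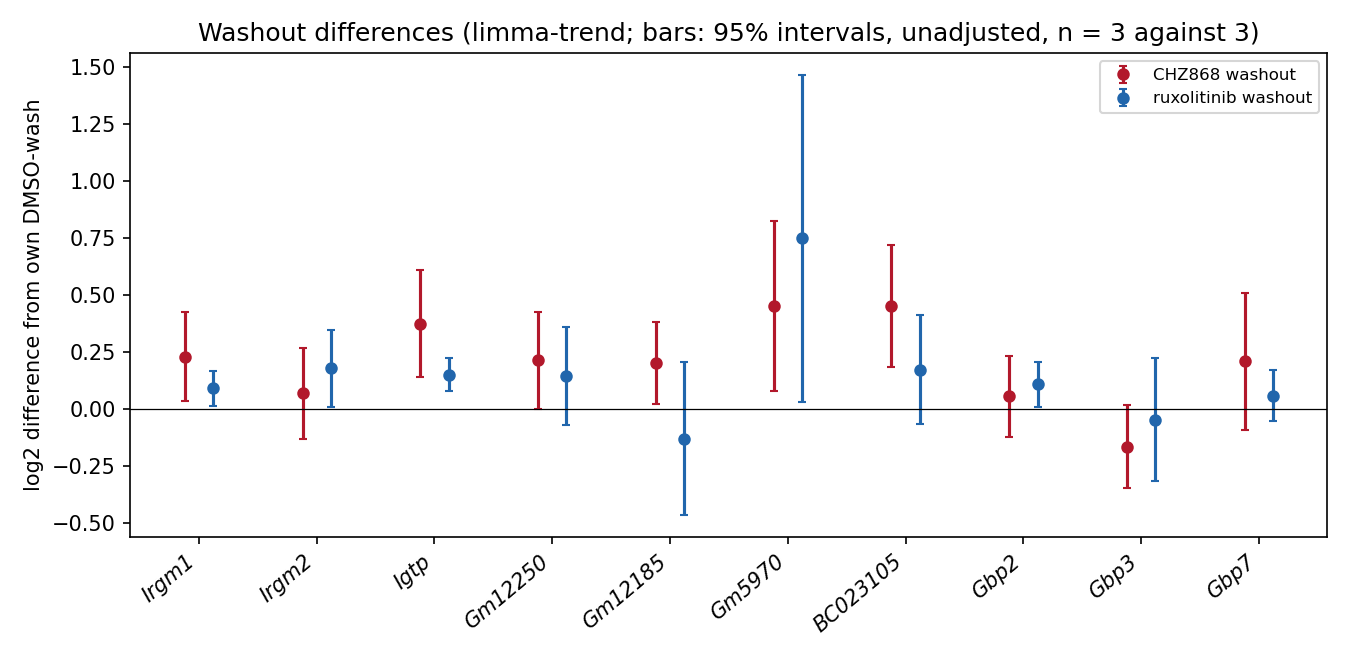
Log2 difference of each member (horizontal axis) from its own DMSO-wash group after CHZ868 (red) and ruxolitinib (blue) washout, with 95% intervals of the limma-trend fits, unadjusted for the number of genes (3 libraries against 3). The points lie between -0.16 and 0.75, and the lowest interval bound is -0.46, for Gm12185 after ruxolitinib.

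To compare the washout effects with each other, 1 fit took in all 12 washout libraries and 10078 genes. Of these 1.90% were called by limma-trend and 0 of 10 members. At an unadjusted p under 0.05 by limma-trend were 1903 genes and 1 member, Gm12185, so nothing is read from that member passing. Its ruxolitinib washout effect was below that of CHZ868 by a log2 difference of -0.33 (95% interval -0.66 to -0.002, limma-trend adjusted p = 0.262). For the others the differences lay between -0.28 for BC023105 and 0.29 for Gm5970, with adjusted p-values up to 0.815 by limma-trend. The intervals leave room for differences of up to -0.63 for BC023105 and 0.97 for Gm5970, so a p that misses the threshold does not show that the inhibitors act alike. With the CHZ868 control library that stood apart left out, Igtp had a difference of -0.10 in place of -0.22, Gbp7 of -0.32 (limma-trend adjusted p = 0.065) in place of -0.15, and Irgm1 of -0.08 in place of -0.14. Gm12185 then had -0.33, BC023105 -0.37 and Gm5970 0.35, again with 0 of 10 members called, while 5.26% of all genes were. Without replicate 2 of the same DMSO-wash group the difference for Gbp7 was -0.0039.

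The genes whose 4 log2 differences lay closest to the medians of the members were sought among 9963 other genes that all tables hold, by Euclidean distance. Of the members Irgm2 and Igtp lay near these medians, at distances of 0.19 and 0.20, and the other 8 lay 1.16 to 4.21 away, so the genes found resemble those 2 and not the members at large. Among the 5 nearest were Ciita, which encodes the activator of class II major histocompatibility genes, at a distance of 0.15, Fbn1, which encodes the matrix protein fibrillin, at 0.25, Pim1, a STAT5 target kinase gene, at 0.40, and Gbp6 at 0.46. All of these were again among the 5 nearest without either library that stood apart, at distances of up to 0.20, 0.33, 0.43 and 0.46. Ciita had -3.35 with CHZ868, -3.06 with ruxolitinib, 0.16 after CHZ868 washout and 0.17 after ruxolitinib washout, where the medians of the members were -3.37, -3.19, 0.21 and 0.13. Pim1 had -3.20, -2.84, 0.14 and 0.10 in the same order.

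Levels of the members differed between the tables even among DMSO groups, and the tables were normalized separately, so these are set side by side only. Mean log2 CPM in DMSO-treated cells, DMSO-wash cells of the CHZ868 experiment and DMSO-wash cells of the ruxolitinib experiment was 6.35, 6.16 and 6.02 for Gm12250, 8.51, 8.35 and 7.58 for Igtp, 7.49, 6.79 and 4.31 for Gm12185, and 9.82, 8.48 and 6.07 for Gbp7.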

How the data were processed

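RNA-seq of 21 Ba/F3 JAK2-V617F libraries in 7 groups of 3 was used, and every column of the 4 tables was assigned to its sample from the labels. The authors deposited log2 CPM values after low-count filtering and TMM normalization, with constants of 0.2218, 0.2135, 0.2218 and 0.0912 CPM added in the CHZ868 6 h, ruxolitinib 6 h, CHZ868 washout and ruxolitinib washout tables. The study's methods name kallisto and GRCm38, whereas the submitters' processing notes name STAR 2.7.3a, edgeR 4.0.16 and GRCm39, so how shared reads were divided is not settled. Strand-specific libraries are stated, and the strand setting of the counting is not given in the sources used here. Removal of the constant gave whole reads in 15 libraries (100% of low values, within 0.02 read), with the CPM of a read fitted for each library. For the ruxolitinib washout table a single CPM per read was assumed for all its libraries, and 51.5% to 60.5% of low values were whole. That unlike check cannot show whether the table holds whole reads, and its depth is unknown.

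For groups held in the same table, limma-trend (limma 3.58.1, R 4.3.3) was run on the 2 groups compared, over all genes, with Benjamini-Hochberg adjustment and a threshold of 0.05. The washout effects were compared in a fit of all 12 washout libraries. Ruxolitinib-treated and DMSO-treated libraries, held in separate tables, were centred on medians over shared genes and described without a test. Their SE is from the pooled spread of these libraries, without the moderation over genes of limma. Members, gene lists, motifs and tests were chosen with earlier results of these data known. Genes named are the members, listed genes and the 5 non-members nearest to the members' median differences. A listed signalling gene, also among those 5, and a marker gene are not reported here by name, and counts over their lists include them. Same-numbered replicates did not deviate together (correlations from -0.065 to 0.087), so no block was used. Fits were tested on simulated data. Percentages of the DMSO level were computed from recovered reads, for ruxolitinib after median scaling. Alternatives were no trend, median centring, quantile normalization, log2(CPM + 1), a filter at a mean log2 CPM of 1, voom on recovered reads, a replicate block and leaving out each library. Near copies were found with BLAST 2.17.0 among GENCODE M21 transcripts.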

Additional observations from a re-analysis of the deposited data

How the results depend on the processing

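The 6 h differences were in view when the members were chosen, so their direction under the alternatives is no sign of stability. With CHZ868 7 of 130 recomputed member values moved by more than the spread between replicates, and 6 of 98 with ruxolitinib, under quantile normalization or log2(CPM + 1). The washout counts were not stable. For CHZ868 washout 457 genes were called, 0 without the mean-variance trend, and from 0 to 1426 with 1 library left out. Of the listed genes there, the other GTPases had 2 calls, 0 without the trend, 1 with the replicate block and 0 to 7 with 1 library left out, the signalling genes 0 and 0 to 2, and the family members not known as interferon-inducible 1, 0 without the trend and 0 to 2. Among the members BC023105 passed the threshold under quantile normalization (0.47, limma-trend adjusted p = 0.0433) and with the replicate block (0.45, limma-trend adjusted p = 0.0379), where 539 genes were called. For ruxolitinib washout 3 genes were called, 9 without the trend, 0 with the replicate block and 0 to 1 with 1 library left out. For the difference between washout effects 191 genes were called, 14 without the trend, 6 with the replicate block and 5 to 628 with 1 library left out, and the other GTPases and the signalling genes had 0 calls and 0 to 2. The replicate block changed no other call of a member. Signs turned with 1 library left out for Irgm2 after CHZ868 washout (-0.0002 to 0.12, the turn without CHZ868-wash replicate 1), Gbp3 after ruxolitinib washout (-0.13 to 0.05, with 0.0017 without ruxolitinib-wash replicate 2 and 0.0493 without DMSO-wash replicate 3) and Gm12250 in the difference between washouts (-0.13 to 0.0012). The cause was not tested. Depth limits Gm12250 and Gm5970 in inhibitor-treated cells, where libraries held 2 to 26 and 3 to 13 reads, and in the ruxolitinib washout table it is unknown. With 3 libraries against 3, an exact two-sided permutation test could not go below 0.1.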
